A study of Mus musculus with 12 samples.

Results

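mt-Nd5, mt-Nd6 and mt-Cytb are the last 3 protein-coding genes of the mouse mitochondrial genome in the order of its numbering, and lie side by side. They were picked out of the 37 genes of that genome, and of 48526 gene rows in all, because their levels in pulldowns of double-stranded RNA had been seen to differ from one another. The members were therefore chosen by their pulldown levels against input in both genotypes, and those values are given here as a description with no test. All libraries came from intestinal epithelial cells of 4 female mice aged 3 months. The sample titles call the source whole intestine, while the extraction protocol gives the proximal part of the small intestine. In 2 mice, called DKO, the acetyltransferase genes Kat2a and Kat2b were deleted with tamoxifen, injected into the abdomen at 100 mg/kg on 4 successive days, and 2 control mice received the ethanol and corn oil vehicle alone. Tissue was taken 2 days after the injections, so genotype and tamoxifen cannot be told apart. Each animal gave an input library and pulldowns with J2 and with K1, antibodies that bind double-stranded RNA. This makes 6 groups of 2 libraries, control and DKO input, control and DKO J2, and control and DKO K1. The labels used here do not name a Cre driver or its cell type.

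Mitochondrial DNA is transcribed from both strands into long RNAs that run through many genes, and the messenger RNAs are freed where transfer RNAs are cut out. Most genes are read from 1 template strand, and the RNA of the other strand is mostly removed by the helicase SUPV3L1 with the nuclease PNPT1. RNA of opposite strands that escapes decay can pair, and mitochondria are a known source of double-stranded RNA. mt-Nd5 and mt-Nd6 encode membrane subunits of complex I, the NADH dehydrogenase of the respiratory chain. mt-Cytb encodes cytochrome b, the subunit of complex III that carries its haem b groups and forms its quinone sites.

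By the GENCODE M21 annotation of GRCm38, mt-Nd5 (ENSMUSG00000064367.1) is at chrM:11742-13565 on the plus strand and mt-Nd6 (ENSMUSG00000064368.1) at chrM:13552-14070 on the minus strand. mt-Te, the glutamate transfer RNA gene, follows at chrM:14071-14139 on the minus strand, and after 5 further bases mt-Cytb (ENSMUSG00000064370.1) is at chrM:14145-15288 on the plus strand. Each of the 3 is a single exon without introns, of 1824, 519 and 1144 bases. mt-Nd5 and mt-Nd6 meet tail to tail, and their last 14 bases are the same stretch of DNA read from opposite strands. The ends of both genes are shown for that stretch, which is in capitals. The starts of mt-Nd6 and mt-Cytb, with the first codon in capitals, are shown because they face away from each other across mt-Te, at the place where the pulldown values given below change direction. All are written 5′ to 3′ on the gene's own strand, from the GENCODE M21 transcripts.
mt-Nd5 end, chrM:13506-13565, plus strand: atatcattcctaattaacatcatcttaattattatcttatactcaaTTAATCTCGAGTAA
mt-Nd6 end, chrM:13552-13611, minus strand: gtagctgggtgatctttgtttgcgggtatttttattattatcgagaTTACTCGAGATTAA
mt-Nd6 start, chrM:14011-14070, minus strand: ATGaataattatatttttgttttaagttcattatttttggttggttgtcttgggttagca
mt-Cytb start, chrM:14145-14204, plus strand: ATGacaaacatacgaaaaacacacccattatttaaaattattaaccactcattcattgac

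With each gene read on its own strand, mt-Nd6 differed from its neighbours in base content. mt-Nd6 was 28.1% G and 5.97% C, whereas the other 10 mitochondrial protein-coding genes ran from 5.88% to 16.1% G and from 22.1% to 30.0% C. Those 10 genes are all on the plus strand. Read on that strand, the stretch of mt-Nd6 is 28.1% C and 5.97% G, within both ranges. mt-Nd5 had 9.98% G and mt-Cytb 12.2% G, within that range. G and C together made up 37.1% of mt-Nd5, 34.1% of mt-Nd6 and 39.1% of mt-Cytb, so the 3 genes do not stand apart in the sum. The predicted folding energy of a single strand, from RNAfold, was -13.2 kcal/mol per 100 bases for mt-Nd5, -20.3 for mt-Nd6 and -15.3 for mt-Cytb. For the opposite strand it was -25.0, -7.36 and -24.6. The -7.36 of mt-Nd6 is that of the plus strand, and lies within the -21.3 to -5.54 of the other 10 genes on that strand. By these measures mt-Nd5 and mt-Cytb were closer to each other than either was to mt-Nd6, and the part of sequence in the pulldown values was not tested.

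All counts were made without regard to strand. Reads from RNA of mt-Nd5 and from RNA of the strand opposite to it fall on the same row, as do those of mt-Nd6 and the long transcript that runs across it, and they cannot be told apart. The libraries held 2220291 to 16139531 gene-assigned counts. The 4 DKO pulldowns were the smallest, with at most 5826361, against at least 10307281 in the other 8. Reads with several alignments made up 15.8% to 46.7% of the listed reads in DKO pulldowns and 5.54% to 8.05% in the other libraries. The targeted genes fell in DKO input, Kat2a from 222 and 228 counts to 84 and 148 (log2 -0.88, SE 0.23, edgeR adjusted p 0.0205) and Kat2b from 359 and 343 to 118 and 114 (log2 -1.51, SE 0.17, edgeR adjusted p 6.32e-04). The 8 epithelial markers were all present and summed to 6628 to 7652 CPM (counts scaled to a common library size) in input, and the 10 leukocyte markers to 112 to 116 in control and 67.2 to 70.2 in DKO. The 6 markers of Paneth cells, the defensin-secreting cells of the crypt base, summed to 3914 to 4513 in control input and 1599 to 3462 in DKO input. The 6 stromal markers summed to 30.1 to 160.5 in DKO pulldowns and 2.93 to 40.1 in control pulldowns, and the part of these cell types in the results was not tested. In bulk tissue, fewer cells of a type and less RNA per cell cannot be told apart.

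In input, mt-Cytb was the most abundant of the 3 per length and mt-Nd6 the least. Levels are given as CPM after TMM scaling of all 12 libraries, a correction for differing RNA composition, divided by gene length in kb. mt-Cytb stood at 5035 and 5104 in control input and at 3304 and 2944 in DKO input. mt-Nd5 stood at 2151 and 1969 in control and at 1622 and 1427 in DKO. mt-Nd6 stood at 1052 and 951 in control and at 746 and 689.8 in DKO. Every DKO input library was below both control input libraries for each gene, as for the other mitochondrial protein-coding genes except mt-Co1. How many of all genes separated in this way is not given here, and 17.1% of all genes were called lower in the test given below. No 2 of the 3 genes overlapped within a genotype. Among all 13 mitochondrial protein-coding genes, mt-Cytb ranked 2 in control input, where it overlapped mt-Nd1, and 3 in DKO input. mt-Nd5 ranked 5 and mt-Nd6 ranked 7 in both genotypes. mt-Nd5 overlapped mt-Nd2 just above it in DKO input, and in control input the libraries of the 2 genes also overlapped.

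In the pulldowns mt-Cytb was the lowest of the 3 per length, and mt-Nd5 remained above mt-Nd6 in each library. mt-Nd5 stood at 4369.6 and 6137 in J2 of control animals, 56418 and 19660.1 in J2 of DKO animals, 2775 and 2906 in K1 of control animals, and 32004 and 51220.2 in K1 of DKO animals. Its DKO pulldowns were the highest of its 12 libraries, and each pulldown was above every input. mt-Nd6 had J2 levels of 3745 and 5497 (control) against 39671 and 15819 (DKO), and K1 levels of 2247 and 2645 (control) against 30428 and 44998 (DKO). Its group means were in the same order as those of mt-Nd5, and again every pulldown was above every input. mt-Cytb had J2 levels of 806 and 868 (control) against 727 and 374 (DKO), and K1 levels of 498 and 413 (control) against 596 and 939.7 (DKO). Each of its pulldowns was below every input library. mt-Nd5 ranked 1 per length among the 13 genes in all 4 pulldown groups, mt-Nd6 ranked 2 or 3, and mt-Cytb ranked 6 or 7. Several of these neighbours in rank overlapped: mt-Nd5 and mt-Nd6 in control J2, DKO J2 and DKO K1, mt-Nd6 and mt-Nd1 in control J2, DKO J2 and control K1, and mt-Nd6 and mt-Co1 in control K1. mt-Nd5 also overlapped mt-Nd1 in control J2 and DKO J2, and mt-Cytb overlapped mt-Co3 just below it in DKO J2. None of the 3 has a near-identical copy elsewhere in the annotation, at 97% identity over 100 bases, whereas mt-Co1, mt-Co2, mt-Atp6, mt-Co3, mt-Nd3 and mt-Nd4l are covered by such copies over nearly all their length and mt-Nd4 over 63.6%. Reads of those genes can be lost or split between copies, so the ranks depend on genes whose levels are uncertain.

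**Figure D1:**
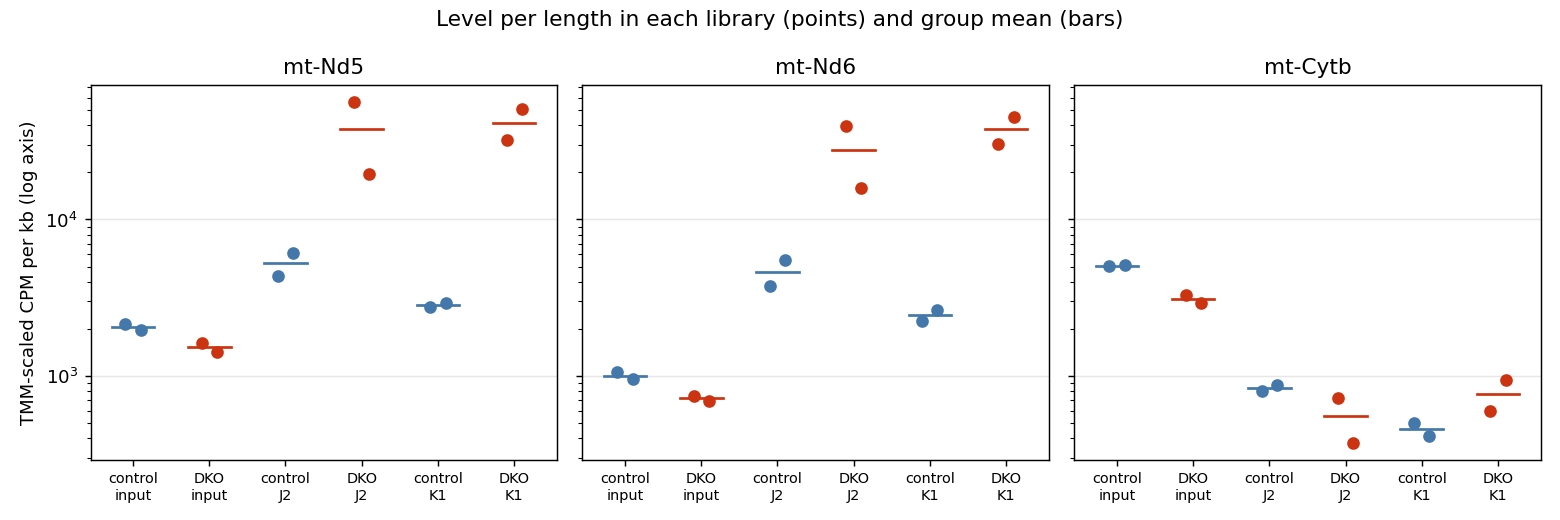
Level of each gene in CPM after TMM scaling per kb, on a log axis, with 1 point per library and a bar at the mean of the 2 libraries of a group. mt-Nd5 and mt-Nd6 lie higher in every pulldown than in every input library, and mt-Cytb lies lower in every pulldown.

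Because the 3 genes are counted in the same library, the ratio between them does not depend on how libraries were scaled. Per kb, mt-Nd5 stood to mt-Cytb at 0.427 and 0.386 in control input and 0.491 and 0.485 in DKO input. The ratio was 5.42 and 7.07 in control J2 and 5.57 and 7.04 in control K1. It was 77.6 and 52.6 in DKO J2 and 53.7 and 54.5 in DKO K1. Input, control pulldown and DKO pulldown thus occupied separate ranges, and within a genotype the libraries of J2 lay near those of K1. The ratio of mt-Nd6 to mt-Cytb took the same order, with 0.186 to 0.234 over the 4 inputs, 4.51 to 6.41 over the control pulldowns and 42.3 to 54.6 over the DKO pulldowns. The ratio of mt-Nd6 to mt-Nd5 changed little in comparison. It was 0.460 to 0.489 over the inputs and 0.703 to 0.951 over the pulldowns, with the control and DKO ranges overlapping for K1 but not for J2, where both DKO libraries (0.703 and 0.805) were below both control libraries (0.857 and 0.896).

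**Figure D2:**
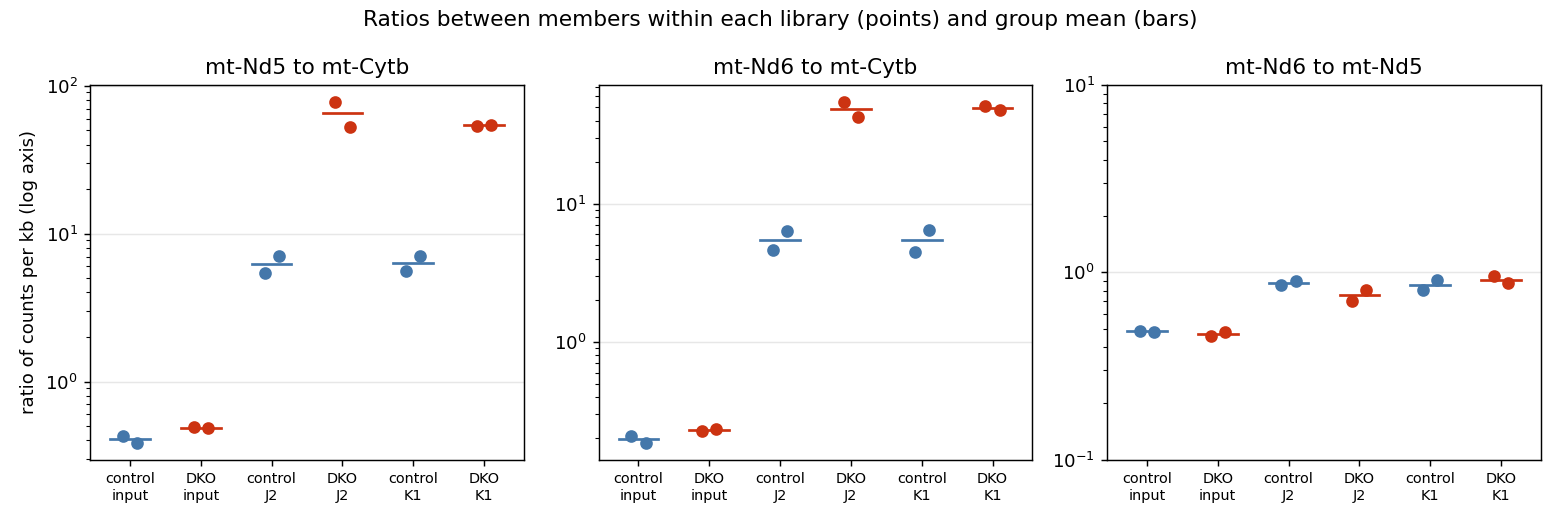
Ratios of counts per kb between the members within each library, on log axes, with 1 point per library and a bar at the group mean. The ratio of mt-Nd5 to mt-Cytb lies between 0.386 and 0.491 in input, 5.42 and 7.07 in control pulldowns and 52.6 and 77.6 in DKO pulldowns, whereas mt-Nd6 to mt-Nd5 stays between 0.460 and 0.951.

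As a share of all counts on mitochondrial genes, mt-Nd5 took 11.04% and 10.3% in control input, 9.64% and 9.78% in DKO input and 49.3% to 52.8% in the 4 DKO pulldowns. The control pulldowns lay in between, at 32.9% to 37.5%. mt-Nd6 took 1.26% to 1.54% of mitochondrial counts in input, 7.57% to 9.56% in control pulldowns and 10.6% to 13.7% in DKO pulldowns. mt-Cytb ran the other way, with 12.3% to 16.7% in input, 3.22% to 3.98% in control pulldowns and 0.427% to 0.589% in DKO pulldowns. The exact (Clopper-Pearson) 95% interval for counting error in the library with the fewest mt-Cytb reads, the second DKO J2 library with 1386, was 0.558% to 0.620%. Counting error was therefore small beside these differences, although reads are not all independent molecules if the molecular identifiers were not used. Together the 3 genes held 61.2% to 64.7% of mitochondrial counts in DKO pulldowns, 44.1% to 50.4% in control pulldowns, and 28.3% to 28.8% and 23.2% to 23.8% in control and DKO input. All mitochondrial genes held 1.40% to 2.77% of gene-assigned counts in control pulldowns and 8.76% to 18.6% in DKO pulldowns. Of gene-assigned counts, mt-Cytb held a mean of 0.0898% (control) against 0.0537% (DKO) in J2, and 0.0512% against 0.0793% in K1. Its lower share of mitochondrial counts in DKO is thus not by itself a lower level.

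J2 enrichment, the log2 level in the pulldown minus that in the input of the same animal, was 1.02 and 1.64 in the control animals for mt-Nd5, and 5.12 and 3.78 in the DKO animals. The control animals had 1.83 and 2.53 for mt-Nd6, and the DKO animals 5.73 and 4.52. mt-Cytb gave -2.64 and -2.56 in the control animals and -2.18 and -2.98 in the DKO animals. The DKO animals were above the control animals for mt-Nd5 and mt-Nd6, and the genotypes overlapped for mt-Cytb. Among the other mitochondrial genes with values, only mt-Co1 overlapped, and the rest were higher in DKO. How many of all genes separated in this way is not given here, so nothing is read from the separation. The values fitted over the 8 input and J2 libraries were 1.36 (SE 1.07) in control and 4.67 (SE 1.22) in DKO for mt-Nd5, and 2.21 (SE 0.72) and 5.30 (SE 0.83) for mt-Nd6. For mt-Cytb they were -2.59 (SE 0.60) and -2.48 (SE 0.60), a depletion of about the same size in both genotypes. The SE of mt-Nd5 in control was close to the value itself. Its enrichment by J2 in control is therefore poorly fixed by the fit, which shares 1 spread over both genotypes.

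K1 gave the same order of the genes. Enrichment of mt-Nd5 was 0.37 and 0.56 in the control animals, and 4.30 and 5.17 in the DKO animals. That of mt-Nd6 was 1.09 and 1.48 in the control animals, and 5.35 and 6.03 in the DKO animals. That of mt-Cytb was -3.34 and -3.63 in the control animals, and -2.47 and -1.65 in the DKO animals. Here all 3 genes were higher in both DKO animals than in both control animals, with mt-Cytb still below its input in each animal. The same separation held for every other mitochondrial gene with a value, so it was not particular to the 3. The share of all genes that separated in this way is not given here. The fitted values were 0.38 (SE 0.50) and 4.70 (SE 0.58) for mt-Nd5, 1.21 (SE 0.39) and 5.64 (SE 0.47) for mt-Nd6, and -3.55 (SE 0.40) and -2.10 (SE 0.38) for mt-Cytb, control first. The control value of mt-Nd5 was within its SE of 0, and under alternative settings it ran from 0.14 to 0.47.

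**Figure D3:**
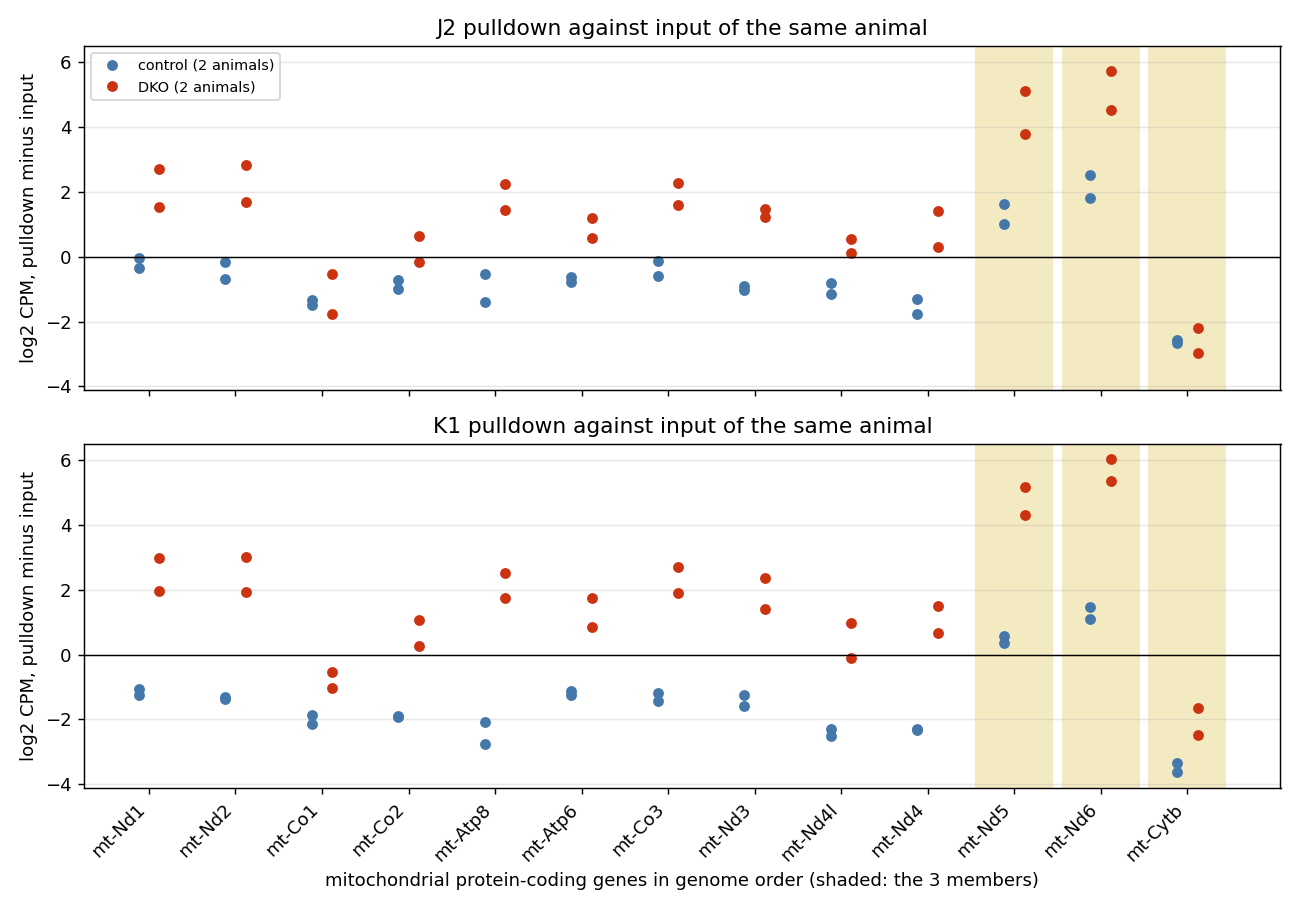
Log2 CPM in the pulldown minus input of the same animal, for the 13 mitochondrial protein-coding genes in genome order, with J2 above and K1 below and 1 point per animal. mt-Nd5 and mt-Nd6 are the highest points of each genotype, up to 6.03 in DKO, and the adjacent mt-Cytb is the lowest, down to -3.63 in control.

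The difference in enrichment between DKO and control was large for mt-Nd5 and mt-Nd6 with both antibodies. For J2 it was 3.31 (SE 1.52) for mt-Nd5, 3.09 (SE 1.00) for mt-Nd6 and 0.11 (SE 0.80) for mt-Cytb on the log2 scale. For K1 it was 4.31 (SE 0.73), 4.43 (SE 0.57) and 1.45 (SE 0.51). The J2 and K1 differences share the same input libraries, and so are not separate evidence. The first DKO animal carried part of the J2 values: without it the differences were 2.44, 2.32 and -0.37, and mt-Cytb changed sign. Without the second DKO animal the K1 difference of mt-Nd5 was 3.82 and that of mt-Cytb 0.99. With every library thinned to the total of the smallest, 2220291 counts, the J2 differences were 3.42, 3.17 and 0.31, and the K1 differences 4.62, 4.65 and 1.81, in the order mt-Nd5, mt-Nd6 and mt-Cytb. In this random thinning they were at least as large as in the main fit, and the part of library depth was not tested. The share of reads with several alignments still differed between these libraries, and its part was not tested.

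The other 10 mitochondrial protein-coding genes, which encode further subunits of complexes I and IV and of the ATP synthase, place these values. In control their fitted enrichment was below 0 for all 10 with each antibody, with a median of -0.91 for J2 and -1.75 for K1, against medians of -0.07 and 0.00 over all genes tested. In DKO it was above 0 for 9 of 10 with each antibody, with medians of 1.20 and 1.57, against 0.10 and -0.14 over all genes. mt-Nd5 and mt-Nd6 were above and mt-Cytb below the range of these 10 genes in all 4 comparisons. That range was -1.52 to -0.18 for J2 in control and -0.93 to 2.40 in DKO, and -2.60 to -1.22 and -0.87 to 2.49 for K1. The transfer RNA gene mt-Tp, which lies beyond mt-Cytb and mt-Tt, was also below that range in control, at -2.39 (J2) and -3.12 (K1). In DKO it was inside the range, at -0.40 and -0.26. A low value at this end of the genome in control was thus not particular to mt-Cytb. The difference between genotypes had a median of 2.36 for J2 and 3.42 for K1 over the 10 genes, with mt-Nd5 and mt-Nd6 above it and mt-Cytb below it for each antibody. For J2 the range was 0.48 to 2.93, and the 3 members fell outside it. For K1 it was 1.22 to 4.71, and they fell inside it.

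In the test of the J2 difference, 3 of these 10 genes were higher in DKO at an edgeR adjusted p under 0.05, against 2.71% of all genes in either direction and 0.772% higher. In the test of the K1 difference, 9 of 10 were higher, against 5.47% in either direction and 1.37% higher. The contrast is 1 of those that chose the members, and nothing is read from these counts about them. With the animal as a block, 0 of the 10 passed for J2 with edgeR, where 0 of all genes passed and 4074 had an unadjusted p under 0.05, and 9 passed for K1. Without the first or the second control animal edgeR passed 0 for J2 (2 and 3 at an unadjusted p under 0.05), and 0 and 1 for K1 (9 and 9 unadjusted). With thinned libraries 0 passed for J2 (7 unadjusted) and 6 for K1. DESeq2 called 8 of 10 for J2 and all 10 for K1. The mitochondrial ribosomal RNAs mt-Rnr1 and mt-Rnr2, which had few counts in input, were enriched more than mt-Nd5 and mt-Nd6 in every comparison. For mt-Rnr1 the J2 enrichment was 3.46 (control) against 8.22 (DKO), and the K1 enrichment 2.97 against 8.36. For mt-Rnr2 these values were 6.17 against 10.93 with J2, and 5.51 against 10.72 with K1. The difference between genotypes was 4.76 for each with J2, where mt-Rnr1 alone passed, and 5.38 and 5.21 with K1, where both passed (edgeR adjusted p 0.00659 for each).

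The members were not chosen on the input comparison itself, and it is the only 1 in which they are tested. The same input libraries enter the pulldown values against input that chose the members, so this test is not independent of the choice. mt-Cytb fell by 0.66 on the log2 scale in DKO input (SE 0.19, edgeR adjusted p 0.0301), and mt-Nd6 fell by 0.44 (SE 0.14, edgeR adjusted p 0.0389). mt-Nd5 had a log2 fold change of -0.39 (SE 0.18) and did not pass (edgeR adjusted p 0.128). All 3 were lower in both DKO libraries than in both control libraries. So were the other mitochondrial protein-coding genes except mt-Co1, and the share of all genes that separated in this way is not given here. Of all 15088 genes tested, 35.9% were called in either direction and 17.1% were lower, so a call in this comparison was common. Both calls rested on having 2 control libraries. Without the first or the second, the adjusted p was 0.320 and 0.153 for mt-Nd6 and 0.213 and 0.218 for mt-Cytb, and over all alternatives it ran from 0.00565 to 0.717 and from 2.57e-07 to 0.427. For mt-Nd5 it ran from 0.00517 to 0.825.

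Proportions among the 3 genes were also compared within the input libraries. mt-Cytb took 16.4% ± 0.326 of mitochondrial counts in control input and 12.5% ± 0.241 in DKO input (SD, n = 2). The ratio of mt-Nd5 to mt-Cytb per kb was 0.406 ± 0.0293 in control and 0.488 ± 0.00451 in DKO (SD, n = 2). Both DKO libraries lay outside both control libraries for these 2 measures, and the exact two-sided permutation p was 0.333, the smallest that 2 against 2 libraries allow. The ratio of mt-Nd6 to mt-Nd5 was 0.486 ± 0.00447 and 0.472 ± 0.0166 and overlapped between genotypes (exact permutation p 0.667). The ratio of mt-Cytb to mt-Nd4, the nearest other protein-coding gene upstream of mt-Nd5, was 2.78 ± 0.113 and 2.63 ± 0.122 and overlapped as well (exact permutation p 0.667). These were 4 of 12 such measures compared in input, of which none could pass. All those not shown separated between genotypes (exact permutation p 0.333). Among them, the ratio of mt-Cytb to mt-Co1 was 0.513 in control and 0.332 in DKO, and that of mt-Cytb to mt-Nd1 was 1.01 and 0.787.

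**Figure D4:**
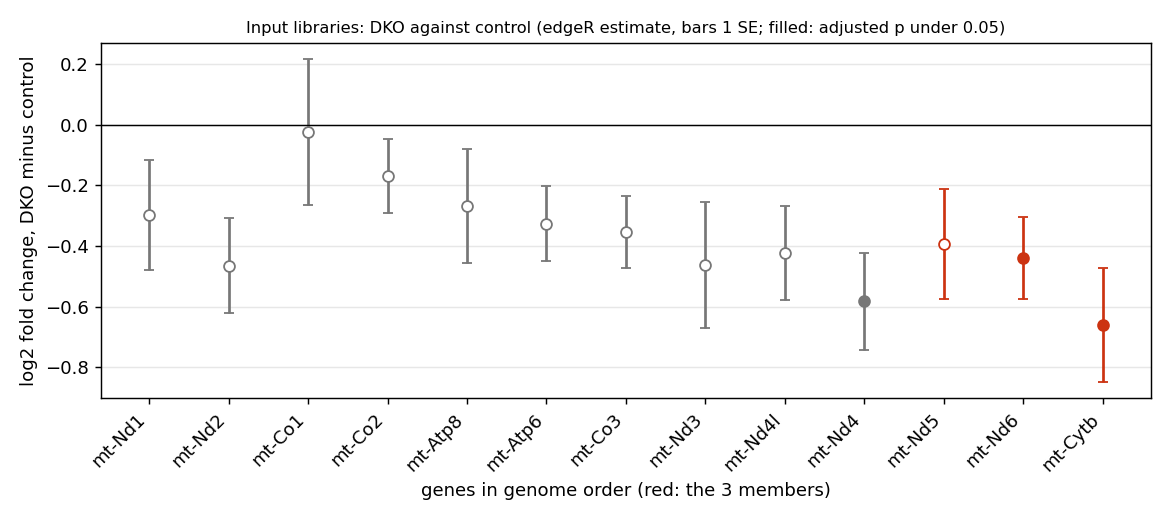
Log2 fold change of the 13 mitochondrial protein-coding genes between DKO and control input, from edgeR, with bars of 1 SE and filled points for adjusted p under 0.05. The members are in red, from -0.39 for mt-Nd5 to -0.66 for mt-Cytb, which is the lowest of the 13, and mt-Nd4 at -0.58 is the only filled point among the other 10.

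Of the other 10 genes, all 10 were below 0 in DKO input (median -0.34, against 0.00 over all genes), and 1 passed. This was mt-Nd4, the complex I subunit gene upstream of mt-Nd5, at -0.58 (SE 0.16, edgeR adjusted p 0.0263). Without TMM scaling 6 passed, and without either control library edgeR passed 0, also before adjustment. DESeq2 called 2. The ribosomal RNAs mt-Rnr1 and mt-Rnr2 were at -1.20 and -0.92, and neither passed in edgeR (2 of 2 at an unadjusted p under 0.05) or in DESeq2. With the replicate number as a block, or without the first control library, both passed.

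The nuclear genes for the partners of the members were measured in the same libraries. Of 36 nuclear subunits of complex I, into which mt-Nd5 and mt-Nd6 are built, 8 fell and 0 rose in edgeR, with a median of -0.29, 30 below 0 and 17 at an unadjusted p under 0.05. DESeq2 called 4, all lower. Ndufb3 was at -0.68 (SE 0.20, edgeR adjusted p 0.0308), Ndufb10 at -0.62 (SE 0.12, edgeR adjusted p 0.00567) and Ndufab1, the acyl carrier protein, at -0.61 (SE 0.15, edgeR adjusted p 0.0197). The count ran from 0 in the fit of all 12 libraries to 18 without the second DKO library, and was 1 and 4 without either control library and 4 without the first DKO library. Of 15 genes for nuclear subunits and assembly of complex III, to which mt-Cytb belongs, 2 fell and 0 rose in edgeR, with a median of -0.24, 12 below 0 and 4 at an unadjusted p under 0.05. DESeq2 also called 2, both lower. They were Uqcr11, a small subunit, at -0.63 (SE 0.15, edgeR adjusted p 0.0131) and Cyc1, cytochrome c1, at -0.51 (SE 0.13, edgeR adjusted p 0.0180). Leaving out 1 library gave 1 to 4. Against 17.1% of all genes lower, 8 of 36 and 2 of 15 were near the background.

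Of 29 tested genes for mitochondrial transcription, RNA processing and decay, 7 fell and 1 rose, with a median of -0.23. Against 17.1% of all genes lower, 7 of 29 was near the background. The 1 that rose was Pnpt1, the nuclease named above, from 14.9 ± 1.04 to 37.2 ± 3.75 CPM (SD, n = 2, log2 1.36, SE 0.14, edgeR adjusted p 5.10e-04), where 18.8% of all genes were higher. Those with the largest fall were Twnk, the mitochondrial DNA helicase, at -0.87 (SE 0.25, edgeR adjusted p 0.0304), Tfam, the factor that packs mitochondrial DNA and starts its transcription, at -0.77 (SE 0.21, edgeR adjusted p 0.0261), and Polrmt, the mitochondrial RNA polymerase, at -0.63 (SE 0.13, edgeR adjusted p 0.00908). The number called ran from 1 in the fit of all 12 libraries to 12, and was 2 and 4 without the first and second control library and 3 without the first DKO library.

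Over the 12 libraries, the log2 level of mt-Nd5 followed that of mt-Nd6 with a Pearson correlation of 0.989, and mt-Cytb ran against both, at -0.56 with mt-Nd5 and -0.66 with mt-Nd6. The libraries share animals and scaling, and the groups set most of the spread, so these are descriptions. Among 9742 genes with a mean of at least 50 counts, mt-Nd6 was the gene most like mt-Nd5, followed by the pseudogene Gm28439 (0.983). Gm28439 matches mt-Nd4 at 100% over 876 bases, and whether reads of one were assigned to the other was not tested. The gene most like mt-Nd6 was the pseudogene Gm11408 (0.997), and mt-Rnr1 (0.976) was among the 5 most like it. mt-Cytb was most like Gm16185 (0.979), Gm39041 (0.968), Gm44639 (0.968), Gm43775 (0.952) and Cops5 (0.942), 1 protein-coding gene and 4 loci annotated as antisense or as still to be tested by experiment, none of which resembles a mitochondrial coding gene in sequence. No mitochondrial gene was among the 5 most like mt-Cytb.

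3 pseudogenes on chromosome 4 resemble the 3 members in turn, at lower identity than the copies counted above. Gm11407 matched mt-Nd5 at 92.3% over 1058 bases, Gm11408 matched mt-Nd6 at 93.6% over 519 bases and Gm11410 matched mt-Cytb at 92.9% over 1142 bases. A further pseudogene, Gm4076 on chromosome 13, matched mt-Nd5 at a higher identity, 95.2% over 954 bases. Gm4076 had 1775 counts over all 12 libraries and Gm11407 had 609. Gm11408 had 24 and 21 counts in control input and 12 and 14 in DKO input. Its J2 counts were 169 and 270 (control) against 869 and 286 (DKO), and its K1 counts 114 and 149 (control) against 850 and 669 (DKO). Gm11410 had 63 counts over all 12 libraries and no more than 14 in any 1. Whether reads of one were assigned to the other was not tested, and their counts were small beside those of the members, which for mt-Nd6 ran from 4644 to 80759.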

How the data were processed

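The deposited files hold whole-number read counts per gene, 1 file per library, made by the authors without using strand, per the labels. The submitters' processing notes name STAR 2.7.10b, SAMtools 1.17, UMI-tools 1.1.4, HTSeq 2.0.2, FastQC, DESeq2 1.40.1, edgeR 3.42.2 and deepTools 3.5.2, and the builds mm10 and GRCm38.p4. How they were used, and the gene annotation, are not given in the sources used here. HTSeq's ambiguous reads, such as those in the overlap of mt-Nd5 and mt-Nd6, are not counted to a gene, and the rows that name no gene (18.7% to 61.2% of the listed reads) were left out.

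Gene IDs were matched to GENCODE M21 without version (48144 of 48526 rows). Genes were tested with edgeR 4.0.16 (quasi-likelihood, TMM, filterByExpr with a minimum count of 10) in R 4.3.3, with Benjamini-Hochberg adjustment over all genes and a threshold of 0.05. The input fit used 4 libraries and each antibody's fit 8. Fitted values use the TMM factors of those libraries, and levels and per-animal values those of all 12, so that they differ slightly. All 3 members passed the filter in each fit. Log2 CPM used a prior count of 2. Simulated data with 200 changed genes were used to test the fits. They gave every library the same spread, whereas the replicates correlated at 0.90 in DKO J2 and 0.93 in DKO K1, against 0.98 to 0.99 in the other groups. They therefore do not show how the fits behave with the more variable DKO pulldowns. RNAfold 2.7.2 gave folding energies and blastn 2.17.0+ the copies.

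Named genes were the members, their neighbours, the 5 genes most correlated with each, and up to 3 called genes per direction of each pathway list with a mean of at least 50 counts. Of 32 mitochondrial RNA factors listed, 29 were tested, and the symbols Fastkd4 and Prorp found no row. The members and lists were chosen with earlier results of these data known. Replicates were separate animals, by the animal codes in the labels. Same-numbered pulldown and input libraries came from the same animal within a genotype, and their deviations correlated at 0.38 to 0.65 across genes. Control and DKO animals were not paired. In the input fit the p-values measure the spread between 2 animals a group. The main fit of each antibody left the animal out, so that input and pulldown of the same animal counted as independent libraries. Its SEs and p-values measure the spread between libraries within groups and ignore that pairing, which entered only with the animal as a block.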

Additional observations from a re-analysis of the deposited data

How the results depend on the processing

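The input fold changes of mt-Nd5, mt-Nd6 and mt-Cytb were below 0 under every alternative run. Fitting all 12 libraries at once called 1675 genes in place of 5421, and left mt-Nd6 (log2 -0.48) and mt-Cytb (-0.70) past no threshold. mt-Nd5 passed without TMM scaling (-0.53) and without the filter on low counts (-0.41). Leaving out each library in turn gave -0.48 to -0.31 for mt-Nd5, which passed without the first DKO library, -0.52 to -0.38 for mt-Nd6, and -0.74 to -0.58 for mt-Cytb. The last 2 lost their calls without either control library. Where 1 library was left in a group, it was assumed to vary like the other group.

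With each animal left out in turn, the difference of enrichment between genotypes was 2.44 to 3.78 for mt-Nd5, 2.32 to 3.54 for mt-Nd6 and -0.37 to 0.43 for mt-Cytb with J2. With K1 it was 3.82 to 4.64 for mt-Nd5 and 0.99 to 1.77 for mt-Cytb. The J2 difference of mt-Cytb also turned negative without the filter (-0.19), so its sign is not fixed by these data. With the replicate block the J2 differences were 3.14, 2.97 and 0.04 and the K1 differences 4.27, 4.40 and 1.42, in the order mt-Nd5, mt-Nd6 and mt-Cytb. The replicate number does not pair control with DKO animals in input, where the block moved the count of calls to 5732. The causes of these changes were not tested. The alternatives for the input fold changes and the differences of the members and for the count of called genes were sorted by direction, call and size. Of these, 83 values kept their direction, their side of the threshold and, within a wide limit, their size. Another 5 moved in size, 3 changed sign, 3 gained a call and 6 lost one. Counts of called genes of 4143 with DESeq2 and 6462 without the filter were within that limit of the main 5421. With 2 animals a group the spread limits the precision far more than counting does.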
